A study of Mus musculus with 6 samples.

Results

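The transcription regulators that drive epithelial-mesenchymal transition (EMT) and those that hold it back were followed in the uteri of mice with stabilized β-catenin. The 10 genes were fixed by name: the drivers Snai1, Snai2, Twist1, Twist2, Zeb1 and Zeb2, and the repressors Ovol1, Ovol2, Grhl2 and Esrp1. All 10 were measured, by 22 probe sets in all, among 18193 genes on the arrays. Total uterine RNA of 3 control and 3 mutant samples of female mice at 4 weeks of age was hybridized to 6 Affymetrix mouse arrays. The mutant carried Pgr cre/+ and Ctnnb1f(ex3)/+, in which Cre made from the Pgr locus removes Ctnnb1 exon 3 wherever Pgr is active and leaves a β-catenin that escapes degradation. The labels call the control wild type. The paper instead gives control mice as Pgr cre/+ or Ctnnb1f(ex3)/+, and only the mutant as having both together. Which of these control mice were on the arrays is not said. The methods state that RNA of 3 mice per genotype was pooled, so the arrays within a group may not be separate animals, and p-values tell only of the spread among these 6 arrays, which may be technical.

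In EMT, cells of an epithelium give up their junctions and polarity and take on the shape and motility of mesenchymal cells. Snail, Twist and ZEB proteins bind E-box sequences in DNA and silence epithelial genes such as Cdh1. OVOL and GRHL factors keep epithelial genes active and silence ZEB genes, Zeb1 and Grhl2 repress each other, and Esrp1 is an RNA-binding protein that sets epithelial splice forms. In a whole uterus the drivers are also normal products of stroma, muscle, vessels and immune cells, while the repressors belong to the epithelium.

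The deposited values are intensities on a linear scale, and every level here is their log2. A fold change is mutant over control, and a gene was called higher or lower at a Benjamini-Hochberg adjusted p under 0.05 over all genes in limma. Errors of fold changes are standard errors (SE), and those of means are SDs over 3 arrays. Genes were read by their brightest probe set. The arrays had medians of 7.23 to 7.42 in intensity, and 62.3% to 62.6% of all probe sets on an array were dimmer than 16 (4 on the log2 scale), where a change may be understated. Replicates of a group correlated at r = 0.992 to 0.996 across probe sets, which are not independent, and arrays of different groups at 0.981 to 0.990. The number of arrays limits the precision. The tissue markers were those of a uterus, with mean log2 intensities in the control of 10.22 ± 0.24 for the epithelial keratin Krt8, 12.93 ± 0.03 for the stromal collagen Col3a1 and 12.24 ± 0.07 for the smooth muscle actin Acta2. Ctnnb1 itself had a log2 fold change of 0.33 (SE 0.09, adjusted p = 0.0498 from limma), which no longer passed when any 1 array other than mutant replicate 1 was dropped (adjusted p of 0.106 to 0.155). The sources used here do not say whether its probes lie in exon 3, so this value checks nothing about the deletion.

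Of the 6 drivers, Zeb1 and Snai1 were higher in the mutant uterus and none was lower. Of the 4 repressors, Ovol2 was lower and none was higher. Among all genes tested, 5.61% were higher and 6.36% were lower, or 12.0% in either direction. The drivers had a median log2 fold change of -0.04 and the repressors one of -0.31, beside -0.01 over all genes. The other 7 regulators did not pass the test. The groups did not overlap for 4 of the 10, while this held for 32.3% of all genes. Zeb1 and Snai1 lay above the control on every mutant array, as did 14.9% of genes, and Snai2 and Ovol2 below it, as did 17.4%. A fold above 1.5 with an unadjusted p under 0.05 was met by Zeb1 and Ovol2, and by 8.25% of all genes.

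**Figure D1:**
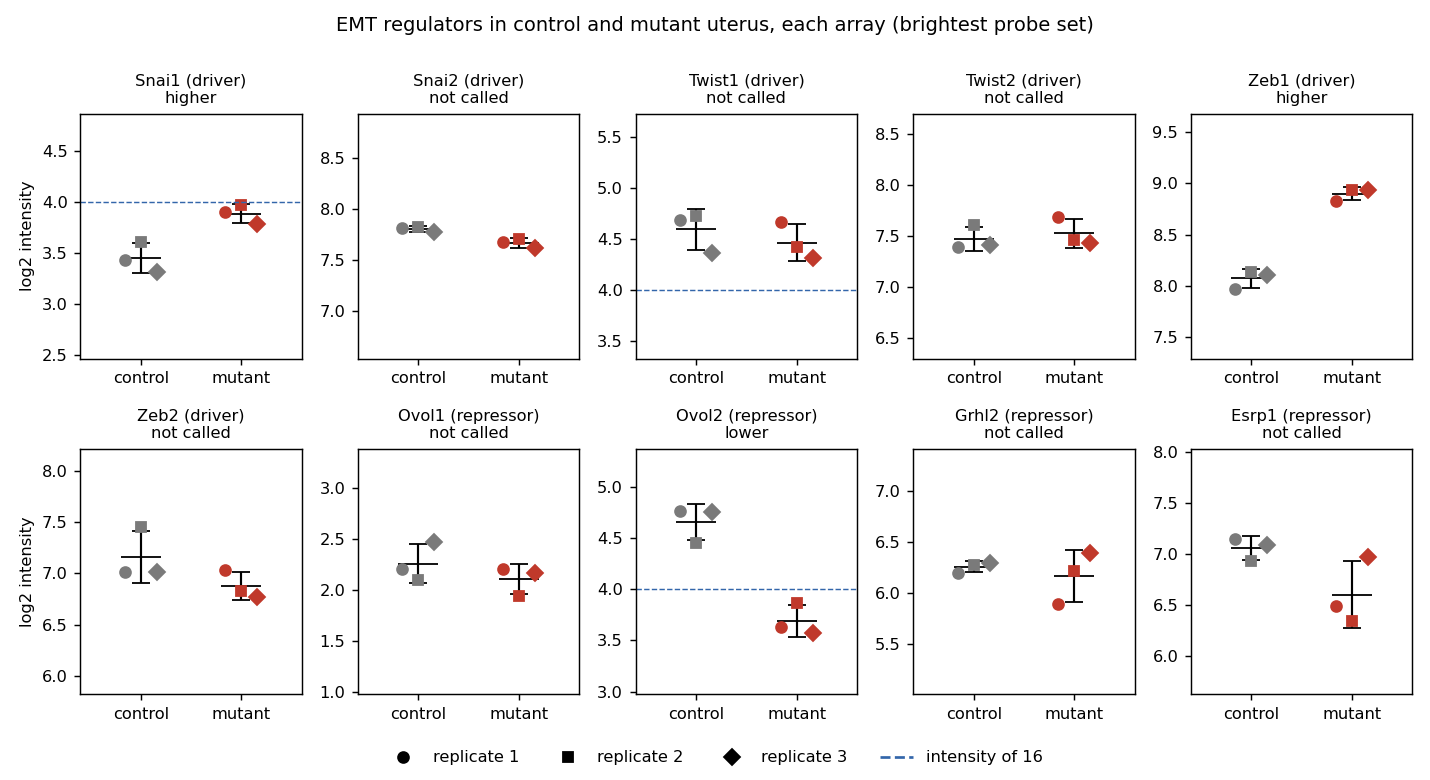
Each panel plots the log2 intensity (y axis) of 1 regulator on 3 arrays of the control in grey and 3 of the mutant in red, with a marker for each replicate number; black bars are the mean and SD, every panel spans the same height, and the dashed blue line marks an intensity of 16. Zeb1 and Snai1 lie higher and Ovol2 lower on every mutant array, and all Snai1 values lie under the dashed line, which is above the range of the Ovol1 panel.

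Zeb1, a zinc finger and homeodomain repressor of Cdh1, had log2 intensities of 7.97, 8.13 and 8.11 on the control arrays, in the order of replicates 1 to 3 kept throughout, against 8.83, 8.94 and 8.94 on the mutant arrays. Every mutant array lay above every control array, by far more than the spread within either group. Zeb1 thus rose 1.78-fold, by 0.83 on the log2 scale (SE 0.08, 95% interval 0.63 to 1.03, adjusted p = 0.00142 from limma). It was called under all 18 alternative settings, at 0.44 to 0.90 on the log2 scale, and its adjusted p ran from 0.000442 to 0.0386 where a setting gives one. The lowest of these values came from averaging its 4 probe sets. The other 3 lay below an intensity of 16 on all arrays and gave log2 fold changes of 0.39, 0.50 and 0.06, none called when all 45037 probe sets were adjusted together (adjusted p = 0.16, 0.0729 and 0.853). The brightest was called in that fit too (adjusted p = 0.00135). Of the 22 probe sets, 2 were higher and 1 was lower there, beside 3.49% and 3.41% of all probe sets, or 6.91% in either direction.

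Zeb2, its paralog, is a partner of SMAD proteins and is also made by macrophages and other myeloid cells. Its brightest probe set gave 7.02, 7.45 and 7.01 in the control and 7.04, 6.83 and 6.77 in the mutant. Control replicate 2 stood above the other 5 arrays, and mutant replicate 1 lay within the control range. The log2 fold change of -0.28 (SE 0.14, 95% interval -0.61 to 0.04, adjusted p = 0.255) did not pass the test. All 5 Zeb2 probe sets had negative fold changes, from -0.79 to -0.03, and none was called. The probe sets at -0.79 (SE 0.26, adjusted p = 0.125) and -0.03 (SE 0.17, adjusted p = 0.954) differed most, and the second lay below an intensity of 16 on all arrays. For the first, control values were 5.80, 6.58 and 5.52 and mutant values 5.52, 4.96 and 5.07, with control replicate 3 and mutant replicate 1 nearly equal and no overlap of the groups. Within each array the difference Zeb1 minus Zeb2 was 0.95, 0.68 and 1.10 in the control and 1.79, 2.11 and 2.17 in the mutant. The change of Zeb1 thus exceeded that of Zeb2 by 1.11 (two-sided exact permutation test, p = 0.1, the smallest that 3 against 3 arrays allow, and 0.133 adjusted over 4 paralog pairs).

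Snai1, the zinc finger factor Snail, had log2 intensities of 3.43, 3.60 and 3.31 in the control and of 3.90, 3.97 and 3.79 in the mutant. The groups did not overlap, and all 6 values lay below an intensity of 16. The single Snai1 probe set rose 1.35-fold, by 0.44 on the log2 scale (SE 0.10, 95% interval 0.20 to 0.67, adjusted p = 0.0316 from limma). Snai1 no longer passed once control replicate 1, control replicate 3, or any 1 of the 3 mutant replicates was dropped (0.37 to 0.49, with adjusted p of 0.0502 to 0.112), and with the variance modelled on intensity (adjusted p = 0.0518). Snai2, or Slug, was read by a pair of probe sets. The brightest, of a type in which some probes may match other transcripts, gave 7.81, 7.82 and 7.77 in the control and 7.68, 7.70 and 7.61 in the mutant. The mutant arrays lay just below the control arrays, but the fold change of -0.14 (SE 0.07, 95% interval -0.31 to 0.04, adjusted p = 0.301) did not pass. The other Snai2 probe set gave -0.17 (SE 0.08, adjusted p = 0.27), again with no overlap. The change of Snai1 exceeded that of Snai2 by 0.57 (two-sided exact permutation p = 0.1, 0.133 adjusted over 4 pairs), or by 0.14 with intensities raised to at least 16.

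The bases before the annotated start of Snai1 and of Ovol2 are shown because these are the called regulators with a promoter sequence in the RefSeq table used here (build GRCm38.p6), which matched 5 of the 10 genes. Capitals mark the E-box CACCTG or its reverse complement CAGGTG, the sequence bound by Snail and ZEB proteins. The TCF/LEF motif CTTTGAT or ATCAAAG, through which β-catenin reaches DNA, was also searched on both strands. Snai1 is on the plus strand at chr2:167537945-167538194, and Ovol2 on the minus strand at chr2:144331363-144331612, each read 5′ to 3′ over 250 bases.
Snai1: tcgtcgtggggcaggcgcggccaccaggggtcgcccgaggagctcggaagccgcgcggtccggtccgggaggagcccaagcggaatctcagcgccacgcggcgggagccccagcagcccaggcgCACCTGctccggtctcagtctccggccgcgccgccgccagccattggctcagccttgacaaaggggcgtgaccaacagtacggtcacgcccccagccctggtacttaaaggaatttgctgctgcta
Ovol2: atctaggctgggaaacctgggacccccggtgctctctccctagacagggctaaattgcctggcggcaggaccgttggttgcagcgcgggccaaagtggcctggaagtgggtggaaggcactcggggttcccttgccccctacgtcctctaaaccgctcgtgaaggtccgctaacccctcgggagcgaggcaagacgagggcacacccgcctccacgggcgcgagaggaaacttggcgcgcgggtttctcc
The Snai1 window held 1 E-box, beginning at position -126 from the start, and no TCF/LEF motif, and the Ovol2 window held neither. Of 32851 windows of this length, 17.2% held the E-box and 3.21% the TCF/LEF motif. A match here is a match of letters only, and absence speaks only of this window.

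The Twist genes, helix-loop-helix factors of mesenchymal cells, showed no called change. Twist1 had log2 intensities of 4.69, 4.72 and 4.36 in the control and of 4.66, 4.42 and 4.31 in the mutant, and Twist2 of 7.39, 7.61 and 7.42 and of 7.69, 7.46 and 7.44. The groups overlapped for both genes. The fold changes were -0.13 for Twist1 (SE 0.13, 95% interval -0.44 to 0.18, adjusted p = 0.614) and 0.06 for Twist2 (SE 0.11, 95% interval -0.19 to 0.30, adjusted p = 0.792). Their difference of -0.18 did not exceed the spread (two-sided exact permutation p = 0.3).

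Ovol2, a zinc finger factor that represses Zeb1 and guards epithelial identity, had log2 intensities of 4.77, 4.46 and 4.76 in the control and of 3.63, 3.86 and 3.58 in the mutant. Every mutant array lay below every control array, and the 3 mutant values fell below an intensity of 16. The log2 fold change was -0.97 (SE 0.12, 95% interval -1.26 to -0.69, adjusted p = 0.00339 from limma), or 1.96-fold lower, from the 1 probe set of the gene. The call held on leaving out each array in turn (-1.08 to -0.92 on the log2 scale) and was lost with the methods' t-test (adjusted p = 0.0668). With intensities raised to at least 16 the fold change was -0.66 (adjusted p = 0.00775). In the whole organ a smaller share of the cells that make a transcript and less transcript per cell cannot be told apart.

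Its relative Ovol1 was read at 2.21, 2.10 and 2.48 in the control and at 2.21, 1.94 and 2.17 in the mutant, all below an intensity of 16. The groups overlapped, and the fold change of -0.15 (SE 0.12, 95% interval -0.44 to 0.13, adjusted p = 0.5) did not pass, nor did that of the other Ovol1 probe set. At these intensities a change of Ovol1 might not be detectable.

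Esrp1, whose protein keeps epithelial forms of transcripts such as Fgfr2 and Cd44, had log2 intensities of 7.15, 6.93 and 7.09 in the control and of 6.49, 6.34 and 6.97 in the mutant. Mutant replicates 1 and 2 lay below the controls, and mutant replicate 3 lay among them. The fold change of -0.46 (SE 0.16, 95% interval -0.83 to -0.08, adjusted p = 0.118) did not pass over all arrays, while without mutant replicate 3 it was -0.64 and was called lower (adjusted p = 0.0195). Grhl2, the grainyhead factor that activates Cdh1 and Cldn4, gave 6.19, 6.27 and 6.30 in the control and 5.89, 6.22 and 6.39 in the mutant. The mutant arrays lay on both sides of the controls. The Grhl2 fold change was -0.09 (SE 0.13, 95% interval -0.39 to 0.21, adjusted p = 0.726), and its 3 dimmer probe sets, all below an intensity of 16, gave -0.09 to -0.03.

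**Figure D2:**
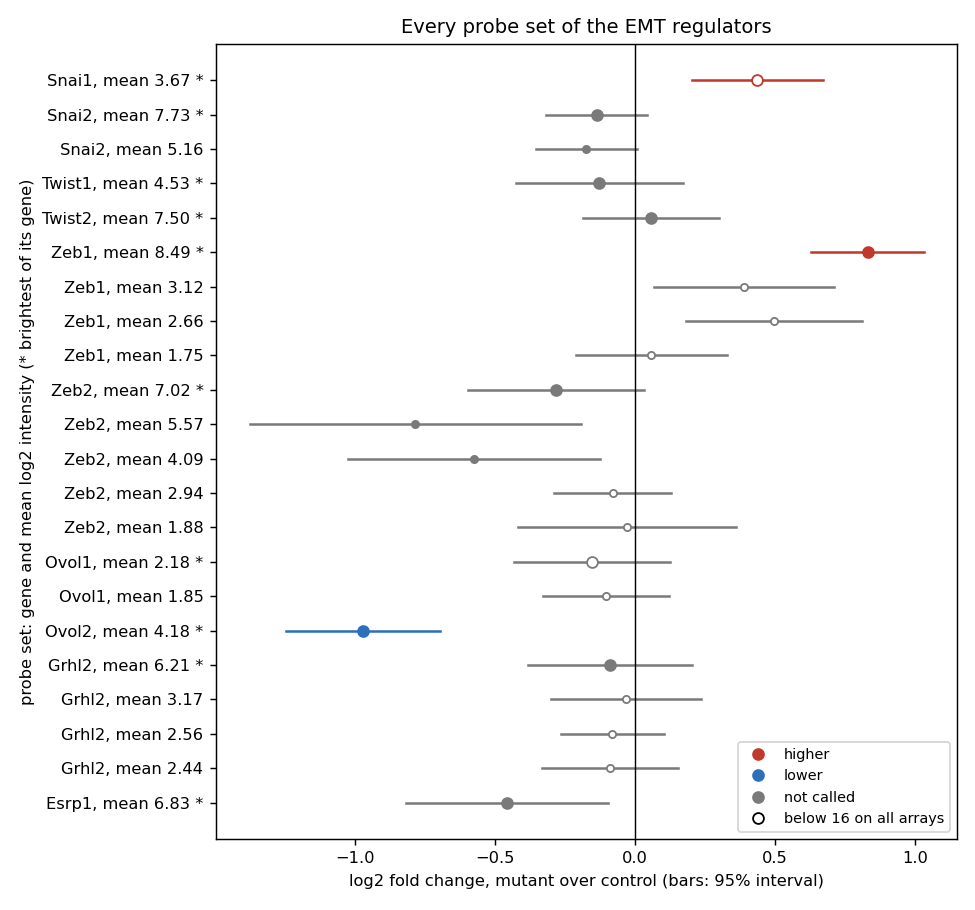
Each row is 1 of the 22 probe sets, with its gene and mean log2 intensity on the y axis, and the x axis is its log2 ratio, mutant to control, with the 95% interval; large circles are the brightest probe set of a gene, and open circles lie below an intensity of 16 on all arrays. Only the brightest Zeb1 and the single Snai1 (red) and Ovol2 (blue) probe sets were called when all probe sets were adjusted together.

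Levels of epithelial and stromal markers in the same RNA give a yardstick for these changes. Their counts stand beside 5.61% of all genes higher and 6.36% lower. Of 10 markers of uterine epithelium, only the keratin Krt18 was lower (log2 fold change -0.80, SE 0.12, adjusted p = 0.00584), none was higher, and their median was -0.35. Their mean log2 intensity was 8.62, 8.43 and 8.71 in control replicates 1 to 3, and 8.11, 8.09 and 8.65 in mutant replicates 1 to 3. Epithelial markers were thus low in mutant replicates 1 and 2 and within the control range in mutant replicate 3. The 5 measured markers of oviduct and ciliated cells had a summed intensity of 301 in mutant replicate 3 and of 33.7 to 48.7 in the control. The oviduct product Ovgp1 was at 8.01 in mutant replicate 3 and at 2.49 to 4.60 on the other 5 arrays. Of the ciliated cell genes, Rsph1 was highest there too, at 4.85, and Foxj1 and Tekt1 were called higher in the mutant (by 0.34 and 0.44 on the log2 scale, with adjusted p = 0.0401 and 0.0131) while below an intensity of 16 on all arrays. The part of oviduct RNA in the epithelial values of mutant replicate 3 was not tested.

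Ovol2 minus this marker mean was -3.85, -3.97 and -3.94 in the control and -4.48, -4.23 and -5.07 in the mutant. Ovol2 was lower on all 3 mutant arrays than on any control array, both relative to epithelial markers and in itself. The lowest relative value was that of mutant replicate 3, where Ovgp1 was high. Fold changes of the markers themselves ran from -0.80 to 0.24. The change of Ovol2 relative to the markers was -0.67 (two-sided exact permutation p = 0.1, the smallest possible, and 0.2 adjusted over the 10 regulators). It was -0.43 when mutant replicate 3 was left out and -0.36 with intensities raised to at least 16. Esrp1 minus the marker mean was -1.47, -1.50 and -1.61 in the control and -1.62, -1.75 and -1.68 in the mutant, a change of -0.16 (exact permutation p = 0.1, adjusted 0.2). The Esrp1 difference was thus smaller relative to the epithelial markers than in itself. Grhl2 stood at 0.21 relative to the markers, with overlapping groups (exact permutation p = 0.3). With Krt18 left out of the markers, an alternative chosen after seeing the data, these values were -0.73 for Ovol2, -0.21 for Esrp1 and 0.15 for Grhl2.

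**Figure D3:**
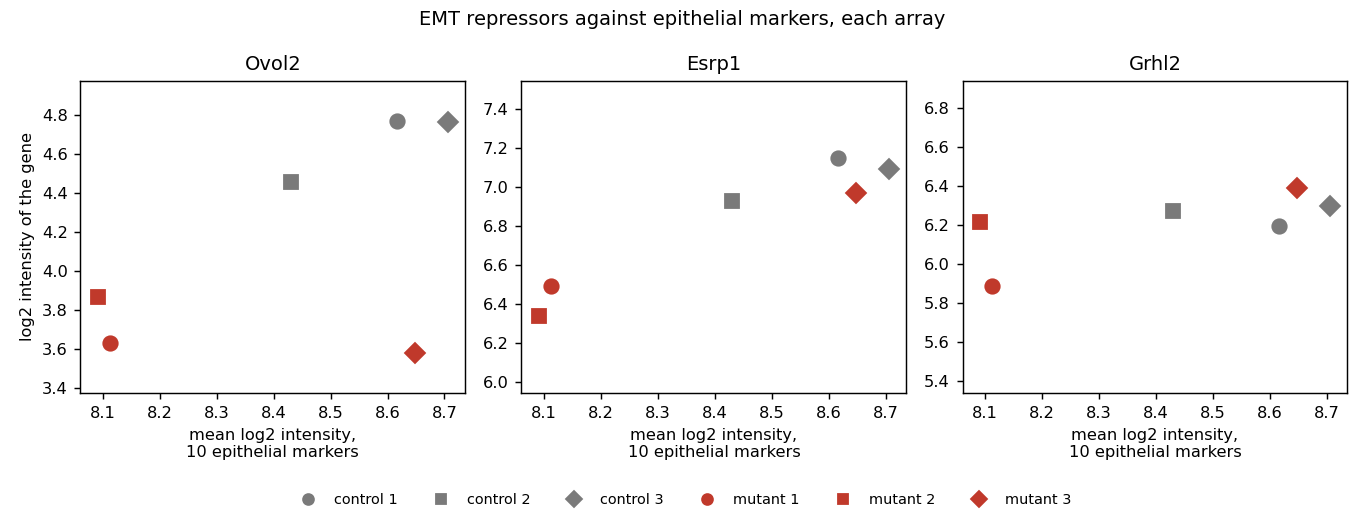
Each point is 1 array, control in grey and mutant in red, with the mean log2 intensity of the 10 epithelial markers on the x axis and the log2 intensity of the named repressor on the y axis. Mutant replicate 3 (red diamond) sits among the controls on the x axis at 8.65 and near them on the y axis for Esrp1 (6.97) and Grhl2 (6.39), but at 3.58 for Ovol2, the lowest of the 6 arrays.

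The drivers were set against 12 markers of uterine stroma, of which 1, Hand2, was higher and none was lower, with a median of 0.03. Twist2 is itself 1 of the 12, so it was set against the other 11. Hand2, a stromal target of progesterone, is named after its values were seen (log2 fold change 1.49, SE 0.18, adjusted p = 0.00315), and it raises the marker mean of the mutant. Zeb1 minus the mean of these markers was -1.41, -1.29 and -1.28 in the control and -0.66, -0.58 and -0.69 in the mutant. The rise of Zeb1 was thus 0.68 relative to the stromal markers (two-sided exact permutation p = 0.1, 0.2 adjusted over the 10 regulators), and 0.37 where probe sets of a gene were averaged. Zeb2 and Snai2 stood at -0.43 and -0.28 relative to these markers (exact permutation p = 0.1, adjusted 0.2). For Snai1, Twist1 and Twist2 the relative values were 0.29, -0.27 and -0.10, with overlapping groups. With Hand2 left out of the markers, chosen after seeing the data, Zeb1 stood at 0.81 and Snai1 at 0.41, both with no overlap. Snai2 was then at -0.16, also with no overlap (exact permutation p = 0.1). Zeb2 was at -0.31 (exact permutation p = 0.2), Twist1 at -0.15 and Twist2 at 0.036, all with overlapping groups. The size of these values thus rests in part on Hand2. Vcam1, also named after its values were seen, stayed among the markers when Hand2 was left out. It was not called (log2 fold change 1.00, SE 0.28, adjusted p = 0.0582), but its groups did not overlap. Of its 6 arrays, 4 lay below an intensity of 16.

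Markers of other cells also moved with the groups. The counts below stand beside 5.61% of all genes higher and 6.36% lower. Of 12 macrophage markers, 4 were higher and none was lower, with a summed intensity of 1566 to 1719 in the control and 1978 to 2034 in the mutant. Their median fold change was 0.23, beside -0.28 for Zeb2, which did not pass. The part of macrophages in the Zeb2 values was not tested. Of 9 measured adipocyte markers, 3 were higher and none was lower, with a median of 1.27 and 8 positive fold changes. The brightest 2, Adipoq and Fabp4, were not called (log2 fold changes 2.48 and 2.20, adjusted p = 0.0735 and 0.102), though their groups did not overlap. The 9 markers had a summed intensity of 209 to 1468 in the control and 2518 to 3973 in the mutant. Within the control group, this sum was 1031, 1468 and 209 in replicates 1 to 3, where Zeb1 stood at 7.97, 8.13 and 8.11. The part of these cells in the change of Zeb1 was not tested. Smooth muscle markers (1 of 10 higher, median 0.04), endothelial markers (1 of 11 higher and 1 lower, median 0.06) and mesothelial markers (none of 7 called, median -0.06) were near the median of all genes. The 9 measured lymphocyte markers, of which 1 was lower, all had means below an intensity of 16, as did 3 of 5 oviduct and ciliated cell markers, of which 2 were higher.

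Of the 4 measured paralogs, Snai3, Grhl1, Grhl3 and Esrp2, none was called. Esrp2, which shares the splicing role of Esrp1, had log2 intensities of 5.42, 5.35 and 5.55 in the control and of 5.17, 4.98 and 5.30 in the mutant (log2 fold change -0.29, SE 0.11, adjusted p = 0.126). All mutant arrays lay below the controls. Grhl1 had a fold change of 0.60 (SE 0.22, adjusted p = 0.136) with all arrays below an intensity of 16, and was called higher without mutant replicate 1 (0.85, adjusted p = 0.0149). Snai3 and Grhl3 stood at -0.11 and -0.08 on that scale (adjusted p = 0.586 and 0.783). None of 7 splicing factors with a role in EMT was called, and the smallest p were those of Ptbp1 and Srsf1, at 0.22 and 0.20 (adjusted p = 0.133 and 0.295).

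Of 15 other measured factors that promote EMT, 6 were higher, 1 was lower and 8 did not pass, with a median of 0.16. Over all genes, 5.61% were higher and 6.36% were lower. Hmga2, a chromatin protein that induces Snai1 and Twist1 in other tissues, had a log2 fold change of -1.31 (SE 0.20, adjusted p = 0.00807), opposite in sign to the other called members. The T-box factors Tbx3 and Tbx2 rose by 0.76 each (SE 0.12 and 0.15, adjusted p = 0.00763 and 0.0203) and the forkhead factor Foxc1 by 0.91 (SE 0.19, adjusted p = 0.0208). Tbx2 and Foxc1 lay below an intensity of 16 on all 6 arrays, and both calls were lost without control replicate 1 (0.79 and 0.98, adjusted p = 0.0667 and 0.0563). Foxc1 did not pass with replicate numbers as blocks either (adjusted p = 0.0502). The Tbx3 value was 0.39 when its probe sets were averaged (adjusted p = 0.0116). The call of Tbx2 was also lost without mutant replicate 2 or 3 (0.73 and 0.77, adjusted p = 0.0766 and 0.0516).

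Of 13 other measured regulators of the epithelial state, 5 were lower, 2 were higher and 6 did not pass, with a median of -0.07. The shares over all genes were 6.36% lower and 5.61% higher. Klf4, a Krüppel-like factor that activates Cdh1, had log2 intensities of 8.94, 9.05 and 8.96 in the control and of 7.91, 7.75 and 7.71 in the mutant. The groups lay well apart, and the fold change was -1.19 (SE 0.09, adjusted p = 0.000381). Tfcp2l1, of the grainyhead superfamily, had a fold change of -1.28 (SE 0.27, adjusted p = 0.0217), which did not pass with replicate 1 or replicate 2 of either group dropped (-1.32 to -1.08, adjusted p of 0.0557 to 0.0763). The 2 higher genes were Foxa2, the factor of uterine glands, by 1.54 (SE 0.17, adjusted p = 0.00193), and Trp63, of stratified epithelia, by 1.79 (SE 0.20, adjusted p = 0.00208). The Trp63 call was lost with intensities raised to at least 16 (0.36, adjusted p = 0.141). When probe sets were averaged, Trp63 stood at 0.43 and Tfcp2l1 at -0.52 (adjusted p = 0.0111 and 0.0279).

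Snail and ZEB factors can silence junction and polarity genes of epithelia, and OVOL and GRHL factors can sustain them. Of 30 such genes measured, 12 were lower, 2 were higher and 16 did not pass. Their median was -0.41, and 26 fold changes were negative. Over all genes, 6.36% were lower and 5.61% higher. The 10 epithelial markers had a median of -0.35, near that of this list. The part of epithelial content in these values was not tested. Cdh1, E-cadherin, had log2 intensities of 8.85, 8.87 and 8.72 in the control and of 8.44, 8.44 and 8.71 in the mutant. Mutant replicate 3 again lay next to the controls, and the fold change of -0.28 (SE 0.10, 95% interval -0.52 to -0.05, adjusted p = 0.122) did not pass. The desmosomal cadherin Dsg2 had a fold change of -0.84 (SE 0.09, adjusted p = 0.00154) with values of 7.46, 7.43 and 7.59 in the mutant against 8.24 to 8.40 in the control, and one of -0.46 when its probe sets were averaged (adjusted p = 0.0171). The plakin Ppl and the tight junction protein Tjp3 stood at -0.82 and -0.81 on the log2 scale (adjusted p = 0.0358 and 0.0337). The call of Ppl was lost without any 1 array but mutant replicate 3 (adjusted p of 0.0731 to 0.128), and that of Tjp3 without any but control replicate 2 (0.0544 to 0.122). Tjp1, the scaffold ZO-1, rose by 0.88 (SE 0.13, adjusted p = 0.00722), against the direction of most of the list. Of the 10 epithelial markers used as a yardstick, 5 are also in this list.

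In RNA of the whole uterus, mesenchymal genes did not rise as a group. Of 31 measured, 3 passed as higher, 3 as lower and 25 in neither direction, with a median of -0.19. Among all genes, 5.61% passed as higher and 6.36% as lower. These values do not show which cells changed, and the part of stromal and muscle content was not tested. The paper reports vimentin protein in some epithelial cells of the mutant, which RNA of the whole organ cannot resolve. Vim, vimentin, had log2 intensities of 10.79, 10.61 and 10.83 in the control and of 10.57, 10.12 and 10.49 in the mutant. Every mutant array lay below every control array, but the fold change of -0.35 (SE 0.13, adjusted p = 0.14) did not pass. With the mean of its probe sets Vim was called lower (-0.44, adjusted p = 0.032). Cdh2, N-cadherin, did not pass (-0.41, SE 0.30, adjusted p = 0.454, and -0.75 to -0.19 on leaving out an array), and Fn1 had a fold change of -0.79 (SE 0.16, adjusted p = 0.018), which did not pass with control replicate 1, control replicate 3, mutant replicate 2 or mutant replicate 3 dropped (adjusted p of 0.0506 to 0.0746). Tnc, S100a4 and Mmp3 rose by 2.63, 1.49 and 1.24 (SE 0.25, 0.21 and 0.14, adjusted p = 0.00105, 0.00512 and 0.00206). Lox, which crosslinks collagen, was 2.01-fold lower (SE 0.20 on the log2 scale, adjusted p = 0.0199), and did not pass without control replicate 1 or 3 (adjusted p = 0.0809 and 0.0563). Averaging of probe sets gave 1.45 for Tnc (adjusted p = 0.000851) and -0.52 for Lox, which then did not pass (adjusted p = 0.0591).

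**Figure D4:**
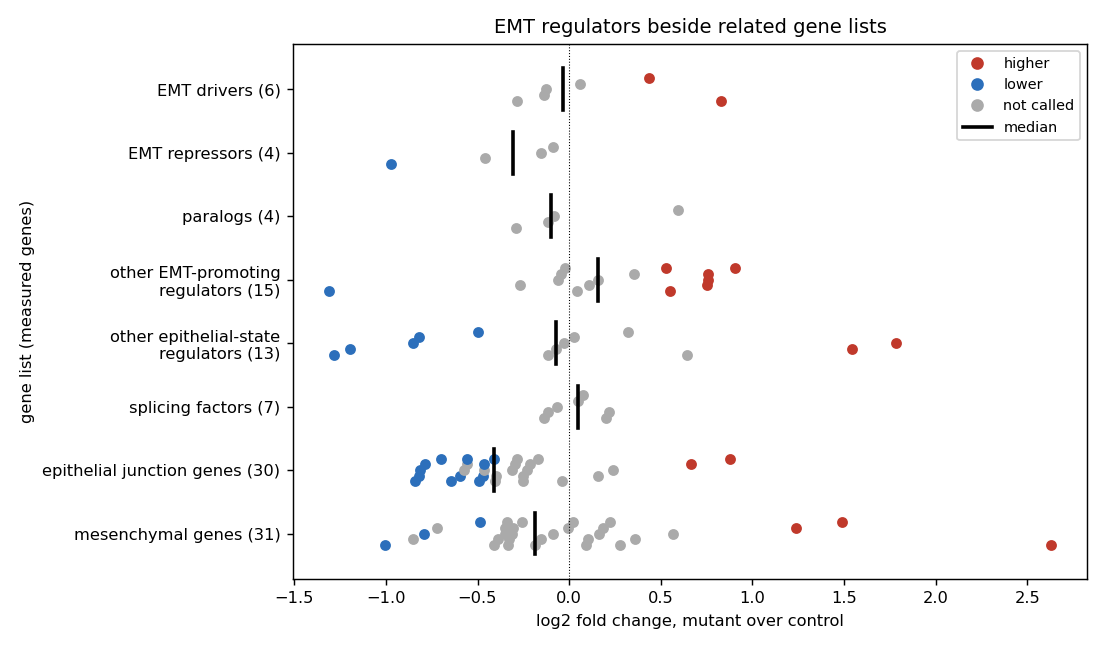
The y axis names each list with its count of measured genes, and the x axis gives the log2 ratio of mutant to control for every gene as 1 point; limma called red genes higher, blue genes lower and grey genes neither, and a black bar marks the median of a list. The medians are -0.04 for the 6 drivers, -0.31 for the 4 repressors, -0.41 for the junction genes and -0.19 for the mesenchymal genes.

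The genes whose levels most resembled those of the called regulators were sought among 10253 genes with a mean log2 intensity of at least 4, over the 6 arrays of both groups. Any gene that differs cleanly between the groups scores high here, and r exceeded 0.95 with Zeb1 for 385 genes, with Snai1 for 168 and with Ovol2 for 89. Zeb1 was most like Rcc2, Il13ra2 and Focad (r = 0.998, 0.997 and 0.996), whose log2 fold changes were 0.55, 3.59 and 1.73. Snai1 was most like Tnnt1, Phlda3 and Cd83 (r = 0.995, 0.992 and 0.992), with fold changes of 0.75, 0.72 and 1.38. Ovol2 was most like Snx21, Galnt7 and Ccdc93 (r = 0.996, 0.995 and 0.995), with fold changes of -0.54, -0.60 and -0.21, the last of which was not called (adjusted p = 0.121).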

How the data were processed

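The 6 samples were assigned to control or mutant, 3 each, by their titles. For every array the authors deposited a linear intensity of each probe set, and the submitters' processing notes name RMA, with no version, filter or detection calls given in the sources used here. As RMA draws the arrays to a common distribution, a change in total RNA would not be seen. Of 45037 probe sets, 34945 carried 1 symbol in GEO's platform annotation, and each of 18193 genes was read by the one with the highest mean over the 6 arrays. Intensities were floored at 1, which changed none, and log2 was taken. The groups were tested by lmFit and eBayes of limma 3.58.1 (R 4.3.3), without covariates, with adjustment over all genes, and again over all probe sets. Within-array differences were compared by two-sided exact permutation over the 6 arrays. Of these steps, only the limma fit was tested on simulated data, with noise drawn independently for each gene and array. The 10 regulators and the lists were chosen with earlier results of these data known. Besides the regulators and their paralogs, the genes named were Ctnnb1, Cdh1, Vim, Cdh2 and Fn1, from each list the 4 called genes of largest change or, with none called, 2 by smallest p, the brightest 2 markers of a cell type (of which only those that a result touches are given), and the 3 genes most like each called regulator. Further markers beside a result (Foxj1, Tekt1, Hand2, Vcam1) were named after their values were seen. Arrays shared identical values at no more than 2.11% of probe sets in any pair. Labels give no batch or scan date, so none was tested.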

Additional observations from a re-analysis of the deposited data

How the results depend on the processing

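The alternatives were other scalings, other ways to read a gene, a filter on the lowest 40% of genes, a floor of 16 (genes at the floor on all arrays left out), a block for the replicate number, an intensity trend, the methods' t-test, weights for arrays, a fold above 1.5 with an unadjusted p under 0.05, and leaving out each array. Zeb1 was higher in all 18 and Ovol2 lower in all but the methods' t-test. The count of higher regulators was 1, without Snai1, with the floor, the trend, the t-test and the fold threshold, and 1 to 2 on leaving out an array. It was also 1 without control replicate 2 and mutant replicate 1 together, chosen after seeing the data (Snai1 0.51, adjusted p = 0.0563). The count of lower regulators was 0 with the t-test and 1 to 2 on leaving out an array. Over all genes, 105 were higher and 39 lower with the t-test, 757 lower with the fold threshold, and 480 to 971 higher and 372 to 1139 lower on leaving out an array (480 and 372 without control replicate 1, 580 and 493 without mutant replicate 2, 682 lower without control replicate 2 and 760 lower without mutant replicate 3). The block left the regulators' counts at 2 and 1, with 966 higher and 1085 lower genes and no call of the 10 regulators changed, while Foxc1 (adjusted p = 0.0502) and Ctnnb1 (0.0697) no longer passed; deviations of same-numbered arrays correlated at 0.01, 0.21 and 0.16, so the numbers were not taken to pair the samples. Uncalled values that changed sign were, on leaving out an array, Twist2 (-0.024 without mutant replicate 1, up to 0.13), Grhl2 (-0.20 to 0.048, the latter without mutant replicate 1, and 0.058 without control replicate 2 as well) and Grhl3 (-0.18 to 0.092, the latter without control replicate 3, and 0.0094 with array weights). Snai1 relative to the stromal markers turned to -0.11 with the floor, which holds Snai1 at 1 value on all arrays, and Twist2 to 0.036 without Hand2. The cause of the other changes was not tested. Signal limits Snai1, Ovol1 and 11 of the 22 probe sets, all below an intensity of 16 on every array.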
